A study of Mus musculus with 3 samples.

Results

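Hox genes encode homeodomain transcription factors, and the 20 of them listed in an RNA table of mouse skin mast cells are described here by cluster, by paralogue group and by the embryonic origin of the cells. Members were the genes whose symbol is Hox, a cluster letter from a to d and a number. They were 20 of 17613 genes with a symbol and of 20677 rows in all. RefSeq (GRCm38.p6) holds 39 such genes, and the other 19 are not listed in the table, in which every row is above 0 in at least 1 library. No member reached 1 FPKM (fragments per kilobase of transcript, scaled to the mapped fragments of the library) in any library.

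Mast cells were sorted from the skin of mice 1 week after birth, of the mixed background C57BL/6xCD1xFVB, and each of the 3 libraries stands for 1 origin. In the early EMP library (early erythro-myeloid progenitor, a yolk sac progenitor), Csf1rCre/EYFP mice had been pulsed with 4-hydroxytamoxifen at embryonic day 8.5. In the late EMP library, Runx1Cre/EYFP mice had been pulsed at day 8.5, and in the fetal HSC library (fetal haematopoietic stem cell) mice of that line had been pulsed at day 9.5. All the mice carried the EYFP reporter, a yellow fluorescent protein that marks the descendants of the cells in which Cre was active. The table heads the early EMP library as a control, but no library is of unlabelled cells. Csf1r drove Cre in the early EMP library and Runx1 in the other two, so in comparisons with early EMP the driver and the origin cannot be told apart; late EMP and fetal HSC differ in the day of the pulse. The labels state neither how many animals were pooled nor their sex. With 1 library per origin, no difference below has a replicate check and no test was possible.

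In mammals the Hox genes lie in 4 clusters, A to D, and are numbered 1 to 13 by paralogue group in the order in which they stand along the chromosome. Low numbers act in the head and upper trunk of the embryo, and high numbers in the lower trunk, the limbs and the tail. In blood, genes of the A and B clusters are known for their activity in stem cells and early progenitors and for their decline as cells mature. Fibroblasts of the skin are known to keep Hox patterns of their place in the body.

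The 10 mast cell markers were all present in the 3 libraries, and Fcer1a, the lowest of them, had 38.83 FPKM for early EMP, 59.02 for late EMP and 52.01 for fetal HSC. Values are given in this order throughout. The steps between low FPKM values implied depths of 15.2, 15.6 and 17.1 M fragments. Genes with a symbol above 0 numbered 14555, 16180 and 13701, so the late EMP library had the most genes with any signal, at a depth close to that of the early EMP library. Xist, which coats the inactive X, had 25.57, 0.53 and 51.98 FPKM, and the Y-linked Ddx3y at 20.74, 38.53 and 0.32 FPKM. Sex-linked RNA thus differed between the libraries, and its part in the values below was not tested.

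Against 0 of 20 Hox genes, 58.8%, 59.7% and 58.1% of all genes with a symbol were at 1 FPKM or more in the 3 libraries, and 65.5% were in at least 1. The highest Hox value was 0.58 FPKM, that of Hoxa7 in the fetal HSC library. The 20 values summed to 0.48, 2.16 and 1.04 FPKM. Members above 0 numbered 7, 19 and 2. Only Hoxa7 and Hoxa9 were above 0 in all 3 libraries, and 4 members, all of cluster C, were above 0 in exactly 2 libraries. Of all genes with a symbol, 82.6%, 91.9% and 77.8% were above 0 in the 3 libraries. The late EMP library had a little signal from nearly every listed member, as it had from nearly every gene with a symbol. But every row is above 0 in at least 1 library, and 13 of the 20 members were above 0 in the late EMP library alone. Those 13 are listed only through it, so its share of members above 0 is in part set by the listing. The fetal HSC library had more from a pair of neighbours and none from the rest. In the early EMP and fetal HSC libraries the share of members above 0 was lower than that of all genes with a symbol.

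**Figure D1:**
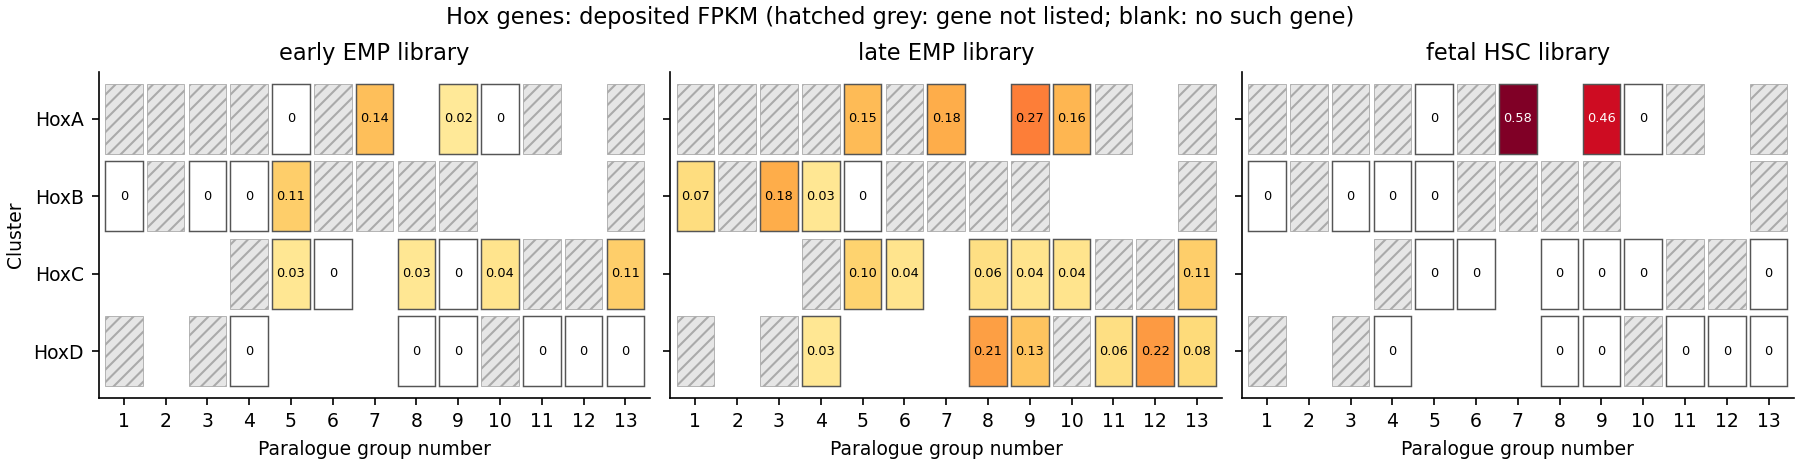
Deposited FPKM of each Hox gene in the 3 libraries, by cluster (rows) and paralogue group (columns); the colour deepens with the value printed in each cell, white cells are listed at 0, hatched cells are genes not listed and blank places have no gene. The late EMP panel is filled for 19 of 20 listed genes, and the fetal HSC panel only for Hoxa7 and Hoxa9.

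Cluster A lies on chromosome 6 from 52155367 to 52260880 (GRCm38), and 4 of its 11 genes are listed. Hoxa7, a gene of progenitors and of leukaemias with MLL fusions, was at 0.14, 0.18 and 0.58 FPKM. The fetal HSC library was the high one and the EMP libraries lay close together. At the implied depth these values stand for about 4, 5 and 18 fragments. The exact 95% Poisson intervals, which cover counting error only, were 1.1 to 10.2, 1.6 to 11.7 and 10.7 to 28.4 fragments. As FPKM, which takes up the difference in depth, they were 0.04 to 0.36, 0.06 to 0.40 and 0.34 to 0.89. On the FPKM scale the interval of the fetal HSC library overlapped those of both EMP libraries at its lower edge. In fragments it overlapped that of late EMP only. An overlap of intervals is no test of a difference, and none was possible here.

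Hoxa9, a driver of self-renewal in blood progenitors and a target of the methyltransferase Kmt2a, was at 0.02, 0.27 and 0.46 FPKM. The early EMP library was the low one. If all fragments came from the longest annotated transcript, they would number 0.9, 13 and 24.2, so the early EMP value rests on about 1 fragment at most. Hoxa9 has more than 1 transcript, and with shorter ones the numbers would be smaller. Hoxa5, which acts in lung formation and in the choice between myeloid and erythroid fates, was at 0.15 FPKM in the late EMP library, about 4.0 fragments, and listed at 0 in the other two. Hoxa10, a regulator of myeloid differentiation and of the uterus, was listed at 0, 0.16 and 0 FPKM.

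The summed FPKM of cluster A was 0.16, 0.76 and 1.04. Without Hoxa7, the fetal HSC library was 0.12 below the late EMP library rather than 0.28 above it, so that order of the sums rests on 1 gene. With a pseudocount of 1 FPKM the log2 differences of Hoxa7 were 0.05 for late over early EMP, 0.47 for fetal HSC over early EMP and 0.42 for fetal HSC over late EMP, and those of Hoxa9 were 0.32, 0.52 and 0.20. These differences understate the ratios, since all values lie below the pseudocount.

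The starts of Hoxa5, Hoxa7 and Hoxa9 are shown because these neighbours share a cluster while 1 of them was above 0 in a single library and the other two in all 3. Each line gives the 250 bases before the start on the minus strand (RefSeq, GRCm38.p6), with CpG dinucleotides, the sites of DNA methylation, in capitals. The windows are chr6:52204588-52204837, chr6:52218574-52218823 and chr6:52227371-52227620.
Hoxa5: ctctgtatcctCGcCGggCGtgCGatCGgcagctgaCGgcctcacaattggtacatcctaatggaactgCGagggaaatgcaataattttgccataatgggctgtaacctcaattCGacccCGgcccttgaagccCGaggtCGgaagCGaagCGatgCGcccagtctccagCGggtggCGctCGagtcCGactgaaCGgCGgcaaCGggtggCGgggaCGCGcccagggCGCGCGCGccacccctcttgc
Hoxa7: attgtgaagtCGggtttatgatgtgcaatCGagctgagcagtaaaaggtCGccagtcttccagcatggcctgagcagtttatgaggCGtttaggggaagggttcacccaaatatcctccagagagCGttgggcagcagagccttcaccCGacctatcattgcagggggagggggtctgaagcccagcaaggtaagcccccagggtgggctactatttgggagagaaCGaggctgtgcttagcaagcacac
Hoxa9: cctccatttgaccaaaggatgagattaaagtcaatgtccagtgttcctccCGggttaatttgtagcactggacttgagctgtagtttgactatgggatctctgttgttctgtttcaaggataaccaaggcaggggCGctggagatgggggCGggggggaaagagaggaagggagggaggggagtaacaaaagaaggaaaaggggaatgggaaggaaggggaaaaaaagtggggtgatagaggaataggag
The Hoxa5 window holds 28 CpG, the Hoxa7 window 7 and the Hoxa9 window 3. Windows were at hand for 12 of the 20 members, 14 starts in all, and held a median of 8.5 CpG (range 2 to 31), against a median of 6 over 32851 starts of all genes. The letters TATAAA, read on both strands, were in 3 of the 14 windows (21.4%) and in 12.4% of all windows, and in none of the 3 shown. The letters TGATNNAT, the composite site of Hox proteins with Pbx partners, were in 2 of 14 (14.3%) and in 7.7% of all, again in none of the 3 shown. A match is a description of the letters in the window and no evidence of binding.

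Cluster B (chromosome 11, 96194316 to 96368254) had 4 of 10 genes listed. Hoxb5, which marks long-term stem cells of the bone marrow, had 0.11 FPKM for early EMP, about 3.0 fragments, and was listed at 0 in the other two. It was the only member with its signal in the early EMP library alone. The other listed members were above 0 in the late EMP library alone. There Hoxb3 was at 0.18 FPKM, Hoxb1, which patterns the hindbrain, at 0.07 FPKM, and Hoxb4, known for the expansion of stem cells in culture, at 0.03 FPKM or about 1.1 fragments. The sums were 0.11, 0.28 and 0 FPKM, and without Hoxb3 the late EMP sum was 0.01 below that of early EMP.

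Cluster C (chromosome 15, 102921131 to 103036856) had 6 of 9 genes listed, all of them above 0 in the late EMP library and at 0 in the fetal HSC library. Hoxc13, a gene of hair follicles and nails, was at 0.11 FPKM in both EMP libraries, about 3.9 and 4.0 fragments. Hoxc10, of the lumbar region and hindlimb, was at 0.04 FPKM in both, about 1.1 fragments each. Hoxc5 was at 0.03 and 0.10 FPKM and Hoxc8, of the thoracic region, at 0.03 and 0.06 FPKM in the early and late EMP libraries. Hoxc6 and Hoxc9 were at 0.04 FPKM each in the late EMP library and at 0 in the early EMP library. The sums were 0.21, 0.39 and 0 FPKM.

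Cluster D (chromosome 2, 74668225 to 74765142) had 6 of 9 genes listed, and all 6 were above 0 in the late EMP library alone. Hoxd12, which acts in the limb, was highest at 0.22 FPKM, about 8.2 fragments. Hoxd8 was at 0.21 FPKM, Hoxd9 at 0.13 FPKM and Hoxd13, needed for the digits, at 0.08 FPKM. Hoxd11, of the forearm, was at 0.06 FPKM and Hoxd4 at 0.03 FPKM. The cluster sum was 0.73 FPKM there and 0 in the other two.

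**Figure D2:**
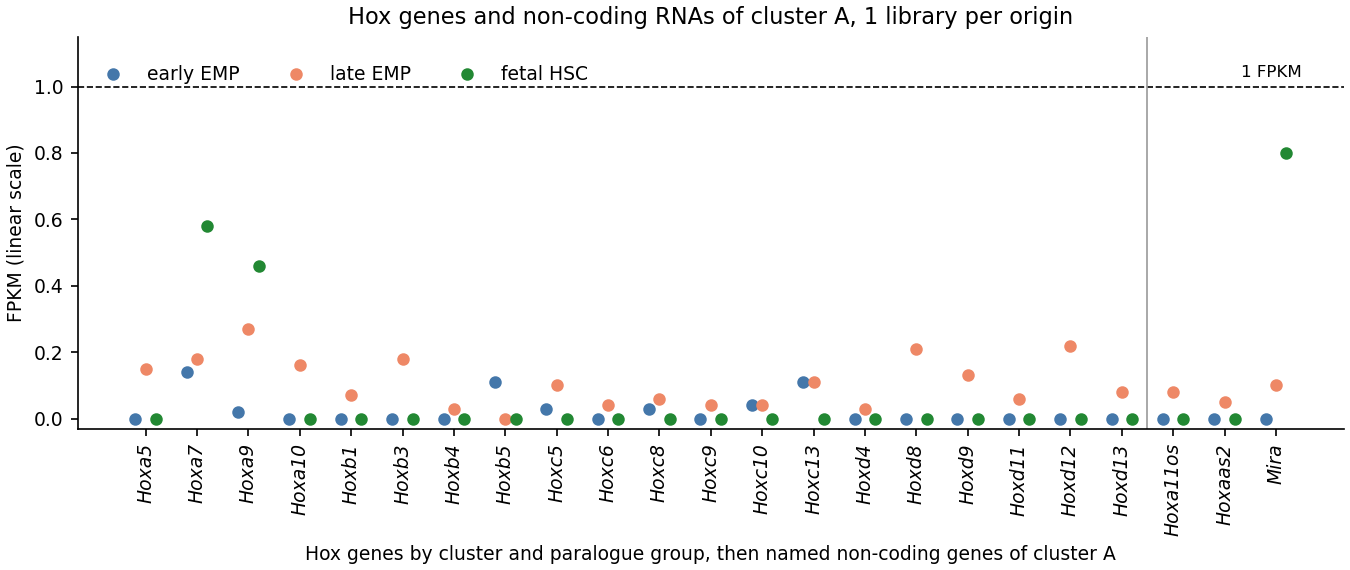
Deposited FPKM on a linear scale of the 20 Hox genes and, to the right of the grey line, of 3 non-coding genes of cluster A; each point is 1 library and the dashed line marks 1 FPKM. All points lie below the line, the highest Hox point is Hoxa7 in the fetal HSC library at 0.58, and Mira in that library is at 0.80.

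By paralogue group, the late EMP values of the listed genes were spread along the whole axis. Groups 1 to 4 had 4 of 12 genes listed, and these summed to 0, 0.31 and 0 FPKM. Groups 5 to 8 had 7 of 11 listed, with sums of 0.31, 0.74 and 0.58 FPKM. Groups 9 to 13 had 9 of 16 listed, with sums of 0.17, 1.11 and 0.46 FPKM. In the fetal HSC library the central sum was Hoxa7 alone and the posterior sum Hoxa9 alone.

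Fold changes were taken on the log2(FPKM + 1) scale. At the filter of 1 FPKM in at least 1 library no member was left to count, and since every value lies under 1 FPKM, no member could be 2-fold apart with a pseudocount of 1 FPKM. The largest difference of any member on that scale was 0.52, that of Hoxa9 for fetal HSC over early EMP. That no member was 2-fold apart therefore says nothing about these genes. The shares of all named genes past the filter that were at least 2-fold apart were 7.55% higher and 4.24% lower for late over early EMP, 8.08% and 8.6% for fetal HSC over early EMP, and 2.73% and 5.36% for fetal HSC over late EMP. The median log2 difference of the 20 members was 0.09, 0 and -0.09 in these comparisons, and with a pseudocount of 0.1 FPKM it was 0.65, 0 and -0.72. With a pseudocount of 1 FPKM, genes with a symbol under 1 FPKM in all 3 libraries had medians of 0.06, 0 and -0.08, and with 0.1 FPKM of 0.38, 0 and -0.55. The 3 comparisons share libraries and are not independent of each other. With a pseudocount of 0.1 FPKM and no filter, a setting chosen after the data were seen, 8, 4 and 9 of the 20 members were at least 2-fold apart, beside 31.3%, 31.0% and 26.7% of all genes with a symbol.

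At 15 members with 1 transcript, the implied fragments summed to 14.1, 41.9 and 18.4. In the late EMP library 14 of these 15 were above 0, at 0.9 to 8.2 fragments each. In the early EMP library 6 were, at 0.8 to 4.0 fragments, and in the fetal HSC library Hoxa7 alone, at 18.4. Most values in the EMP libraries thus stand for a few fragments. A gene listed at 0 may have had no RNA, too little RNA for this depth or an estimate that failed, and these cannot be told apart.

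The scatter of low values over the late EMP library was set beside that of other low genes. Among 6084 genes with a symbol under 1 FPKM in all 3 libraries, 53.5%, 78.7% and 40.4% were above 0 in the 3 libraries, against 7, 19 and 2 of the 20 Hox genes. Genes above 0 in the late EMP library alone were 30.8% of those 6084 and 13 of 20 Hox genes (65.0%). Such genes are listed only through that library, since every row is above 0 in at least 1. The 19 Hox genes not listed are left out of these shares. For the early EMP library alone the shares were 12.3% and 1 of 20, and for the fetal HSC library alone 5.93% and 0 of 20. Olfactory receptor genes, which act in the nose, were added after the data were seen. Of the 246 listed, 222 were under 1 FPKM in all 3 libraries and only these were read, while no Hox gene had to be left out. They gave 64.0% of 222 genes above 0 in the late EMP library alone, and 28.4%, 76.1% and 11.3% above 0 in the 3 libraries. By the share above 0 in the late EMP library alone, the Hox genes lay nearer to the olfactory receptors than to all low genes. So they did by the shares above 0 in the early EMP and fetal HSC libraries. By the share above 0 in the late EMP library, the Hox genes lay nearer to all low genes. The same held for the early EMP library alone, where the olfactory receptors gave 18.0%. The comparison thus did not point 1 way. Hoxa7 and Hoxa9 were above 0 in all 3 libraries, as were 1314 of the 6084 low genes (21.6%) and 5 of the 222 olfactory receptor genes. Both were ordered early EMP, late EMP, fetal HSC from low to high, as were 201 of those 1314 genes (15.3%) and 3 of those 5. The order was looked for after the values were seen.

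**Figure D3:**
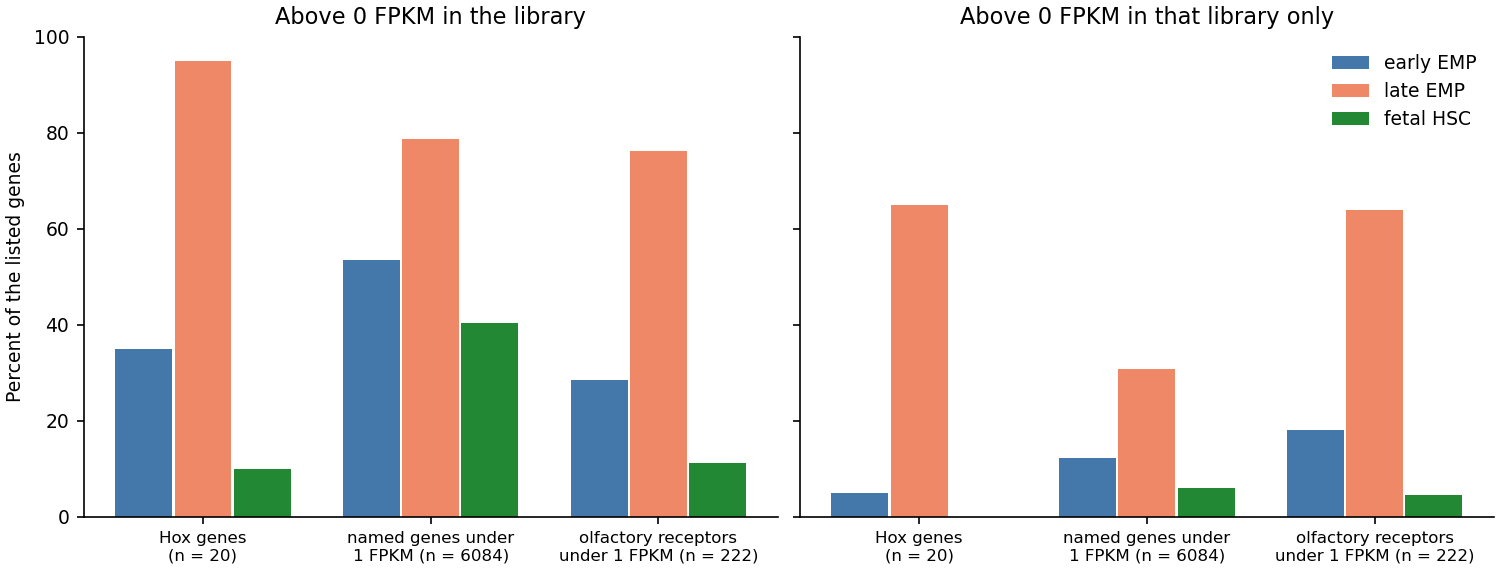
Percent of genes above 0 FPKM in each library (left) and in that library alone (right) for the 20 Hox genes, 6084 named genes under 1 FPKM in all libraries and 222 olfactory receptor genes under 1 FPKM. In every set the late EMP bar is the tallest, and above 0 in the late EMP library alone are 65.0% of Hox genes, 30.8% of the low genes and 64.0% of olfactory receptors.

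RefSeq holds 32 other genes that overlap the clusters, most of them annotated as long non-coding RNAs, and 5 of them are listed. Mira, a chromatin-bound RNA known to act on Hoxa6 and Hoxa7, was at 0, 0.10 and 0.80 FPKM. It lies at chromosome 6, 52214491 to 52215288, and ends 334 bases from Hoxa7. No label says whether the counting used strand, so reads that run past the end of Hoxa7 and reads of Mira cannot be told apart. Hoxa11os and Hoxaas2, also of cluster A, were at 0.08 and 0.05 FPKM in the late EMP library and at 0 in the other two. In cluster B, Gm11538 was at 0.04 FPKM in the late EMP library alone and Gm53 at 0.14 FPKM in the early EMP library alone. Among the 20 Hox genes and these 5, those above 0 in the fetal HSC library, Hoxa7, Hoxa9 and Mira, lie in 1 stretch of cluster A.

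The listed genes that flank the clusters were mostly well above the Hox values. Skap2, an adaptor of leukocyte signalling, lies 142.8 kb before cluster A and was at 26.79, 28.76 and 29.66 FPKM. Hibadh, an enzyme of valine breakdown on the other side, was at 44.8, 36.12 and 42.41 FPKM. Evx1, a homeobox gene 52.6 kb from the cluster on that side and nearer to it than Hibadh, was at 0, 0.12 and 0 FPKM. Beside cluster B, the adaptor Skap1 was at 11.89, 16.32 and 14.93 FPKM. Beside cluster C, the heterochromatin protein gene Cbx5 was at 3.28, 6.02 and 3.94 FPKM. Beside cluster D, Mtx2 of the mitochondrial outer membrane was at 19.55, 21.89 and 18.6 FPKM and Lnpk of the endoplasmic reticulum at 3.32, 4.24 and 5.35 FPKM. Other exceptions beside cluster B were Ttll6 (0.50, 0.02 and 0 FPKM) and Calcoco2 (0, 0.21 and 0 FPKM). Beside cluster C, Smug1 (1.35, 0.71 and 0.72 FPKM) was one too. Evx2, at 6.7 kb from cluster D the nearest flanking gene of all, is not listed, and neither is Gm50595. The next nearest were Ttll6, at 28.1 kb, and Evx1.

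The protein partners of Hox factors were present in all 3 libraries. Of the 8 cofactors read of the three-amino-acid-loop class, which bind DNA together with Hox proteins, 7 were at 1 FPKM or more in each library. Meis2 was the highest, at 46.52, 40.88 and 38.07 FPKM, and Meis1, which cooperates with Hoxa9 in leukaemia, was at 14.43, 13.8 and 12.91 FPKM. Pbx3 was at 4.54, 5.29 and 4.94 FPKM. Pknox1, at 3.33, 8.31 and 5.58 FPKM, was the only one at least 2-fold apart, for late over early EMP. The medians of the 7 were 0.14, -0.14 and -0.10 on the log2 scale, beside 0.06, -0.03 and -0.08 over all 11529 named genes past the filter. Pknox2 was at 0.02 FPKM in the late EMP library and listed at 0 in the other two.

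Activators of Hox transcription were measured in full: all 24 genes of the Trithorax and MLL list were at 1 FPKM or more in each library. Kmt2a, the MLL methyltransferase, was at 2.03, 4.05 and 3.37 FPKM, its partner Men1 at 4.08, 8.12 and 5.33 FPKM and its tether Psip1 at 10.54, 10.37 and 11.15 FPKM. None of 24 was at least 2-fold apart for late over early EMP. For fetal HSC over early EMP 3 were, all higher. Dot1l, which methylates histone H3 at genes in transcription, was at 13.55, 18.58 and 32.05 FPKM. Kdm6b, a demethylase of the Polycomb mark, was at 140.67, 185.72 and 282.47 FPKM and Mllt3 at 1.89, 3.67 and 4.82 FPKM. Kdm6b and Mllt3 lay at the edge: without the 50 most abundant genes in the scaling both fell under 2-fold. Mllt1, at 2.08, 4.26 and 1.56 FPKM, was 2-fold lower for fetal HSC over late EMP, and with median-of-ratios factors was not. The list medians were 0.27, 0.01 and -0.18.

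Of the 32 genes of the Polycomb list, repressors that hold Hox clusters inactive, 30 were at 1 FPKM or more in at least 1 library. Ezh2, the methyltransferase of Polycomb complex 2, was at 6.85, 8.86 and 9.08 FPKM, Suz12 at 6.17, 6.49 and 8.15 FPKM and Eed at 8.96, 10.71 and 14.87 FPKM. Rnf2, the ubiquitin ligase of complex 1, was at 40.89, 63.61 and 59.9 FPKM. None was at least 2-fold higher in any comparison. Cbx8, a reader of the Polycomb mark, was at 14.72, 5.39 and 3.45 FPKM and at least 2-fold lower in both comparisons with the early EMP library. Pcgf1 was at 7.4, 3.97 and 1.01 FPKM and lower for fetal HSC over both others. Ring1, at 2.56, 3.15 and 1.07 FPKM, was 2-fold lower for fetal HSC over late EMP, and under 2-fold with median-of-ratios factors. The medians of the 30 were 0.03, 0.01 and -0.09, and those of all 32 were 0.04, -0.01 and -0.10. Cbx2 was at 0.04, 0.93 and 0.03 FPKM and Pcgf2 at 0.24, 0.44 and 0 FPKM.

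**Figure D4:**
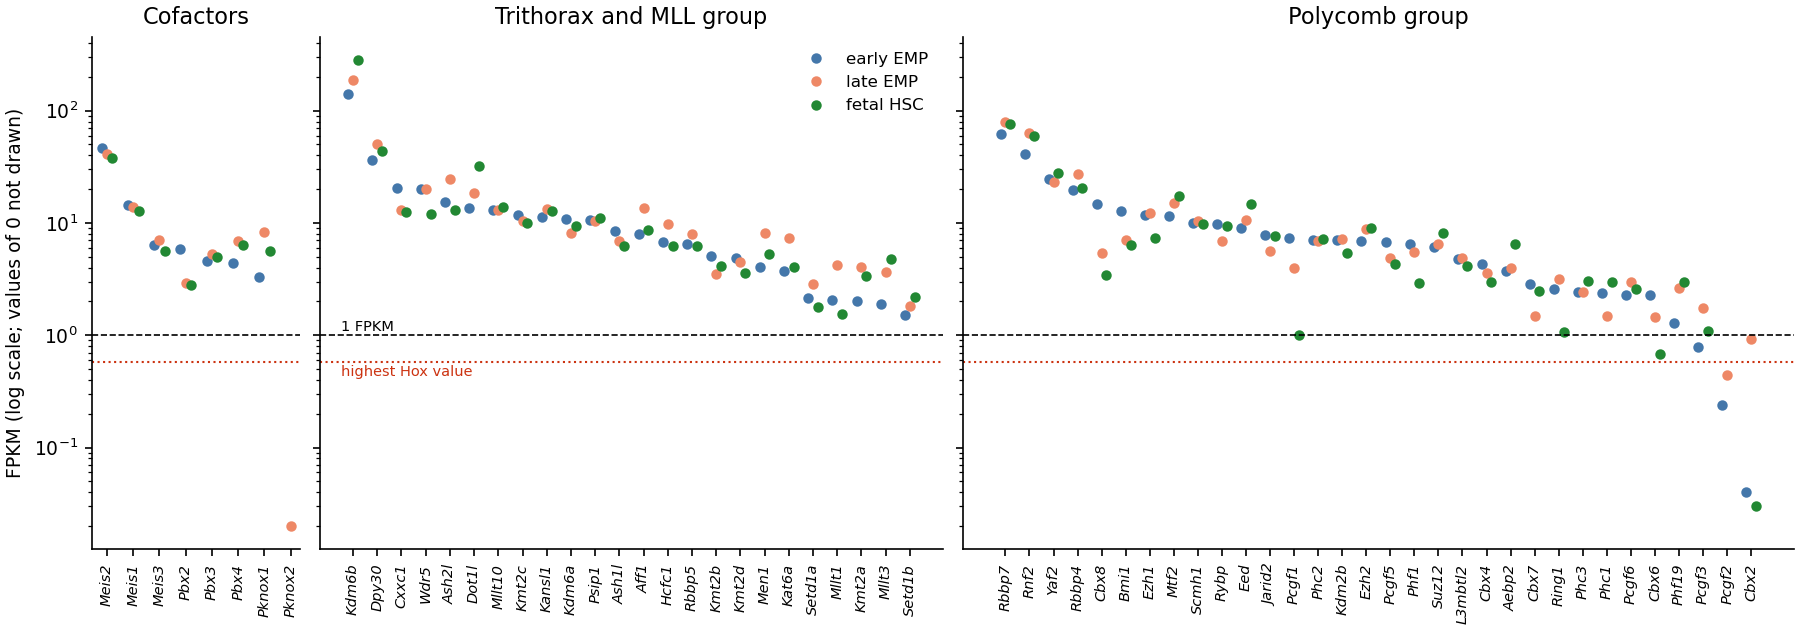
FPKM on a log scale of Hox cofactors, Trithorax and MLL genes and Polycomb genes, 1 point per library; the dashed line marks 1 FPKM, the dotted line the highest Hox value (0.58 FPKM), and values of 0 are not drawn. In each library 7 of 8 cofactors and all 24 Trithorax and MLL genes lie at or above 1 FPKM, with Kdm6b the highest of them.

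Among other regulators and relatives of the clusters, 14 of 18 are listed and 7 were at 1 FPKM or more. The retinoic acid receptor Rara, which relays a signal that induces Hox genes in the embryo, was at 15.46, 24.79 and 12.81 FPKM, and Rarg at 0.75, 3.98 and 1.78 FPKM, 2-fold higher for late over early EMP. Gmnn, which inhibits DNA replication licensing and binds Hox proteins, was at 8.55, 16.83 and 11.45 FPKM. Ctcf, which marks boundaries within the clusters, was at 5.97, 5.57 and 6.82 FPKM. The caudal-type genes Cdx1, Cdx2 and Cdx4, inducers of Hox genes in the embryo, were all at 0.26 FPKM or less. The medians of the 7 were -0.01, 0.17 and -0.11, and those of all 14 were -0.01, 0 and -0.10.

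Genes tied to Hoxa9 and Meis1 in blood were read in a list of 20, of which 14 were at 1 FPKM or more. Flt3, a cytokine receptor of multipotent progenitors, was at 0.07, 0.59 and 3.16 FPKM and was at least 2-fold higher in both comparisons of the fetal HSC library. Myb, a factor of progenitors, was at 40.68, 33.69 and 44.93 FPKM and Cd34, a surface protein of progenitors and mast cells, at 44.54, 41.12 and 43.95 FPKM. Id2 and Kit were the highest of the list, with Id2 at 538.18, 570.19 and 568.69 FPKM. Lmo2, at 2.18, 8.79 and 3.86 FPKM, and Gfi1b, at 0.08, 2.73 and 0.63 FPKM, were at least 2-fold higher for late over early EMP and 2-fold lower for fetal HSC over late EMP. With median-of-ratios factors Lmo2 was under 2-fold in the latter. Gfi1b passed the filter only through the late EMP library and Flt3 only through the fetal HSC library, where each was highest. Their counted differences for those libraries thus rest in part on the filter. The medians of the 14 were 0.11, 0.07 and 0.05, and those of all 20 were 0.24, 0.07 and -0.20, so the third turned its sign. Sox4 was at 0.21, 0.75 and 0.27 FPKM, and Mecom and Lin28b were listed at 0 but for 0.08 and 0.23 FPKM in the late EMP library.

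The stem and multipotent progenitor list shares Cd34, Flt3, Hlf and Mecom with the list before and Hoxb5 with the members. Of the 15 genes read 6 were at 1 FPKM or more. Ly6a, the Sca-1 antigen, was at 2.4, 8.37 and 9.05 FPKM and 2-fold higher in both comparisons with early EMP. For fetal HSC over early EMP, Angpt1 (2.82 against 6.79 FPKM in the fetal HSC library), Mllt3 and Flt3 were higher too, and none was 2-fold lower. Mllt3 fell under 2-fold without the 50 most abundant genes in the scaling. Over these 6 genes the medians were 0.63, 1.02 and 0.21, but Flt3 passed the filter only in the fetal HSC library, and over all 15 they were 0.11, 0.31 and 0. Prom1 (0.94, 0.32 and 0.17 FPKM), Tek (0.66, 0.18 and 0 FPKM) and Slamf1 (0.59, 0.41 and 0 FPKM) were lowest in the fetal HSC library, all under the filter. Procr, which marks stem cells, was at 0, 0.76 and 0.47 FPKM.

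Markers of other cells that a skin sort could hold were read beside the Hox values, and fewer cells of a type cannot be told apart from less RNA per cell. The 10 fibroblast markers summed to 9.39, 19.33 and 15.44 FPKM, most of it Pdgfrb at 7.78, 11.17 and 10.5 FPKM. Without Pdgfrb the sums were 1.61, 8.16 and 4.94 FPKM, with 6, 9 and 9 of the 9 genes above 0. Lum, Dcn and Twist2 were listed at 0 in the early EMP library. The Hox genes above 0 numbered 7, 19 and 2, and their summed level was 0.48, 2.16 and 1.04 FPKM. The part of fibroblast RNA in the Hox values was not tested. Keratinocyte markers summed to 4.52, 5.02 and 5.5 FPKM, endothelial markers to 7.33, 7.69 and 4.69, and pericyte and smooth muscle markers to 4.18, 1.65 and 1.04. Schwann cell markers summed to 3.34, 3.97 and 1.54 FPKM and skeletal muscle markers to 0.25, 0.45 and 0.82.

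The summed markers of some blood and pigment cells had the order of Hoxa7 and Hoxa9, as did the keratinocyte and skeletal muscle sums above. With 3 libraries a shared order is no usable measure of likeness. The 5 listed markers of neutrophils and granulocyte precursors summed to 114.53, 806.54 and 908.75 FPKM, most of it Ctsg, which mast cells also express. Mpo, the myeloperoxidase of granulocyte precursors, was at 0.88, 39.18 and 47.88 FPKM and Elane, the neutrophil elastase, at 0.42, 8.73 and 34.74 FPKM. Melanocyte markers summed to 31.7, 38.38 and 60.47 FPKM, of which Mitf, also a mast cell factor, was 30.16, 25.75 and 23.55. Mitf thus fell, and the other melanocyte markers rose in this order. Pmel was at 1.05, 6.4 and 12.06 FPKM, Dct at 0.15, 3.63 and 6.21 FPKM. Mlana was at 0, 2.23 and 17.6 FPKM and Tyr at 0.34, 0.37 and 1.05 FPKM. The 5 listed T and innate lymphoid markers summed to 35.18, 41.45 and 51.42 FPKM, of which the T cell receptor component Cd3e went the other way, at 13.54, 0 and 0.63 FPKM. Macrophage markers went the other way, at 79.3, 54.76 and 22.91 FPKM. The part of these cells in the Hox values was not tested.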

How the data were processed

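Per the labels' protocols, TRIzol was used to extract the RNA of the sorted cells, and the Beijing Genomics Institute made the libraries and ran them on a HiSeq. The authors deposited 1 table of FPKM values with 2 decimals for 3 libraries, per the file headers; Bowtie2, RSEM, mm10 and GRCm38 are named in the submitters' processing notes, without versions. Columns were matched to libraries by their descriptions.

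Members and lists were chosen with earlier results of these data known. Every Hox gene is named, and of other lists the most abundant and most different genes; 2 list genes are not reported here. Differences are log2((FPKM + 1) / (FPKM + 1)), counted at 2-fold among genes at 1 FPKM or more in at least 1 library; no test was possible. Depth was fitted to the steps between low values, for single-transcript genes of 600 to 1800 bases in GENCODE M21. Of those values 76.8%, 77.7% and 74.4% lay within 0.15 of a whole fragment, where 30% would by chance for a step fixed beforehand. The step was fitted to the same values, so the depth is approximate. The steps were tested on simulated data. Alternatives were other thresholds, pseudocounts, filters and scalings. All 20 members matched RefSeq by gene ID. Tools were Python 3.11.15 with scipy 1.17.1, matplotlib 3.10.9, pandas 2.3.3 and numpy 2.4.6.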

Additional observations from a re-analysis of the deposited data

How the results depend on the processing

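The count of Hox genes at 1 FPKM or more was 0 in each library, and stayed 0 at a threshold of 2 FPKM and under both rescalings tried; at 0.5 FPKM it was 1 in the fetal HSC library (Hoxa7). The count of members at least 2-fold apart was 0 in each comparison under the planned settings, but it could not be otherwise, because no member passes a filter and no value under 1 FPKM can be 2-fold apart with a pseudocount of 1 FPKM. Without a filter and with a pseudocount of 0.1 FPKM, chosen after the data were seen, it was 8 for late over early EMP, 4 for fetal HSC over early EMP and 9 for fetal HSC over late EMP. Leaving out Hoxa7, the most abundant member of cluster A, took the difference of the cluster sums from 0.88 to 0.44 FPKM for fetal HSC minus early EMP, and from 0.28 to -0.12 FPKM for fetal HSC minus late EMP. Leaving out Hoxb3 took the difference for cluster B, late minus early EMP, from 0.17 to -0.01 FPKM. With the filter at 1 or 5 FPKM no member was left, so no median could be given. No paired analysis was possible because each group has 1 library. With a pseudocount of 0.1 FPKM the median log2 difference over all members moved from 0.09 to 0.65 for late over early EMP and from -0.09 to -0.72 for fetal HSC over late EMP. Depth limits most Hox values of the EMP libraries to a few fragments.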
